A study of Bos taurus with 38 samples.

Results

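B2M, BOLA and CD274 are 3 of the 27607 genes counted in muscle of newborn calves, and they were picked because their levels had already been seen to differ between the treatment groups. They are therefore described between those groups without a test, and tested only on sex, dam age and their variation between calves of 1 group. B2M (ENSBTAG00000012330) encodes beta-2 microglobulin, the invariant light chain of major histocompatibility complex (MHC) class I molecules. BOLA (ENSBTAG00000002069) is the Ensembl row of a bovine class I heavy chain, the polymorphic chain that binds the peptide. CD274 (ENSBTAG00000000095) encodes PD-L1, the ligand of the inhibitory receptor PD-1 on T cells. All 3 genes passed the filter on low counts, together with 12964 genes in all.

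The calves were born to Angus-cross cows of 5 to 9 years that had calved before and were assigned at conception to a control group (CTR) or to selenium (Se) supplementation during a single trimester, which was the first for TR1, the second for TR2 and the third for TR3. Supplemented cows received Se-yeast boluses that supplied 105 mg Se per week for 13 weeks, whereas CTR cows received none. Every cow, CTR included, had access to a mineral supplement with 120 mg/kg Se from Na selenite, so that CTR was not a group without added Se. Longissimus dorsi biopsies were taken 12 to 48 h after birth, and each calf gave 1 library. CTR held 10 calves (4 females), TR1 held 9 (2 females), TR2 held 10 (3 females) and TR3 held 9 (5 females). These counts follow the sample labels, which for CTR give 1 female more than the study's description does. That description also gives more sampled calves in TR2 and TR3 than there are libraries.

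A class I molecule reaches the cell surface only when a heavy chain, beta-2 microglobulin and a peptide have assembled in the endoplasmic reticulum. The peptides are cut by the immunoproteasome and carried in by the transporter TAP. Interferon gamma, which induces the transcription factor IRF1, raises heavy chains, B2M, the peptide machinery and CD274 in many cell types, while resting muscle fibres carry little class I. Class II molecules, by contrast, present peptides mainly on macrophages, dendritic cells and B cells.

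Total counts per calf ranged from 12921223 to 17471666, and TMM normalization factors from 0.887 to 1.35. Levels are given as CPM, the counts scaled to a common library total with these factors, and a count of 3 corresponded to between 0.158 and 0.237 CPM. The tissue label was borne out by 7 matched muscle fibre markers, whose summed level was 42083 to 151625 CPM, while 3 matched leukocyte markers summed to 1.58 to 11.4 CPM. A biopsy mixes cell types, and fewer cells of a type and less RNA per cell cannot be told apart. No gene passed an adjusted p of 0.05 in edgeR's quasi-likelihood test of TR1, TR2 or TR3 vs. CTR (0% of genes in each). At an unadjusted p of 0.05 the shares were 2.55% in TR1 (331 genes), 8.34% in TR2 (1081 genes) and 1.35% in TR3 (175 genes), and DESeq2 called 0, 1 and 0 genes.

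**Figure D1:**
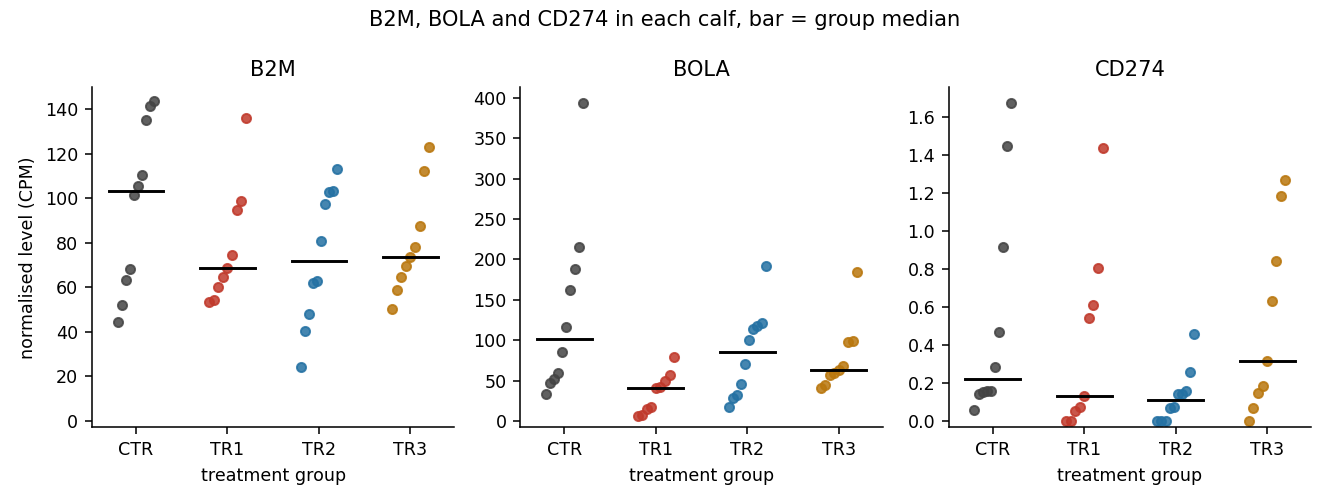
Level of each gene (y axis, CPM) in each calf by treatment group (x axis), with 1 point per calf and a bar at the group median. BOLA in the 9 TR1 calves lay below the CTR median of 101 CPM in every case, B2M overlapped between all groups, and CD274 stayed at or under 0.456 CPM in TR2.

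BOLA, the heavy chain row, was lowest in TR1 and highest in CTR by its median. CTR calves ranged from 34.0 to 394 CPM (median 101), TR1 calves from 5.94 to 79.4 CPM (median 40.3), TR2 calves from 17.4 to 192 CPM (median 85.2) and TR3 calves from 41.0 to 184 CPM (median 63.7). In TR1 the individual levels were 79.4, 57.5, 49.8, 42.2, 40.3, 17.5, 14.5, 7.93 and 5.94 CPM. All 9 TR1 calves were below the CTR median, 4 of them were below the lowest CTR calf, and 6 of 10 CTR calves were above the highest TR1 calf. Within TR1, 5 calves were at 40.3 CPM or more and 4 calves at 17.5 CPM or less. The means of TR2 and TR3 were alike, at 84.0 ± 54.9 CPM (SD, n = 10) and 79.4 ± 44.4 CPM (SD, n = 9), against 135 ± 111 CPM for CTR (SD, n = 10) and 35.0 ± 25.2 CPM for TR1 (SD, n = 9).

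The fitted log2 fold change of BOLA, adjusted for dam age and sex, was -1.98 (standard error 0.49) in TR1 vs. CTR, a level 0.253 times that of CTR. The value was -0.64 (standard error 0.45) in TR2 and -0.73 (standard error 0.49) in TR3, so that TR2 and TR3 lay between CTR and TR1. TR2 exceeded TR1 by 1.34 (standard error 0.49) and TR3 exceeded TR1 by 1.26 (standard error 0.49) on the log2 scale, whereas TR3 vs. TR2 was -0.08 (standard error 0.51), a difference well inside its error. The CTR mean leaned on calf A2034, at 394 CPM, and the TR3 mean on calf A2024, at 184 CPM. Without both calves, left out after their values were seen, the log2 fold change vs. CTR became -1.57 for TR1, -0.35 for TR2 and -0.56 for TR3. With any 1 calf left out, it stayed between -2.20 and -1.61 for TR1, between -0.94 and -0.35 for TR2 and between -0.93 and -0.35 for TR3.

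B2M, the light chain, differed far less. CTR calves ranged from 44.5 to 144 CPM (median 103), TR1 calves from 53.6 to 136 CPM (median 68.7), TR2 calves from 24.2 to 113 CPM (median 71.8) and TR3 calves from 50.3 to 123 CPM (median 73.7). The groups overlapped over most of their range, and no supplemented calf exceeded the highest CTR calf. Below the CTR median were 8 of 9 TR1 calves, 9 of 10 TR2 calves and 7 of 9 TR3 calves. Within CTR, 4 calves were at 44.5 to 68.1 CPM and 6 calves at 101 to 144 CPM. The mean was 96.5 ± 37.5 CPM for CTR (SD, n = 10), and the supplemented groups had 78.4 ± 27.0 CPM (TR1, SD, n = 9), 73.5 ± 30.4 CPM (TR2, SD, n = 10) and 79.7 ± 24.1 CPM (TR3, SD, n = 9).

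The log2 fold change of B2M was -0.29 (standard error 0.25) for TR1 vs. CTR. It was -0.39 (standard error 0.24) for TR2 and -0.27 (standard error 0.26) for TR3. The supplemented groups were closer to each other, with log2 differences of -0.11 in TR2 vs. TR1, 0.02 in TR3 vs. TR1 and 0.12 in TR3 vs. TR2. B2M thus took the same sign as BOLA in all 3 comparisons with CTR, which share their control calves.

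CD274, the PD-1 ligand, was near the limit of detection in this tissue. CTR calves had 25, 19, 14, 6, 4, 2, 2, 2, 2 and 1 counts, TR1 calves 22, 11, 9, 7, 2, 1, 1, 0 and 0, TR2 calves 7, 4, 2, 2, 2, 1, 1, 0, 0 and 0, and TR3 calves 19, 17, 11, 9, 4, 3, 2, 1 and 0. Most counts came from a few calves of each group. In CTR the 3 highest calves held 58 of 77 counts, and in TR3 they held 47 of 66. TR2 had no calf at 10 or more counts, against 3 in CTR, 2 in TR1 and 3 in TR3. The TR2 sum was 19 counts (exact Poisson 95% interval 11.4 to 29.7) and the CTR sum was 77 (60.8 to 96.2) over the same number of calves; these intervals cover counting error only.

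Median CD274 levels were 0.222 CPM (CTR), 0.133 CPM (TR1), 0.110 CPM (TR2) and 0.315 CPM (TR3). The floor of 3 counts lies within this range, so that medians do not order the groups. The log2 fold change was -2.00 (standard error 0.74) in TR2 vs. CTR, -0.44 (standard error 0.66) in TR1 and 0.31 (standard error 0.68) in TR3. TR2 was also below the other supplemented groups, by -1.56 (standard error 0.78) vs. TR1, while TR3 exceeded TR2 by 2.31 (standard error 0.80). The direction in TR3 was not fixed: it was -0.18 without TR3 calf A2065, -0.22 with dam age as a factor and -0.09 without covariates. In TR1 the value lay between -0.92 and -0.04 with any 1 calf left out, and in TR2 between -2.39 and -1.64. The lowest fitted value of CD274 was thus that of TR2, and the lowest of BOLA that of TR1.

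**Figure D2:**
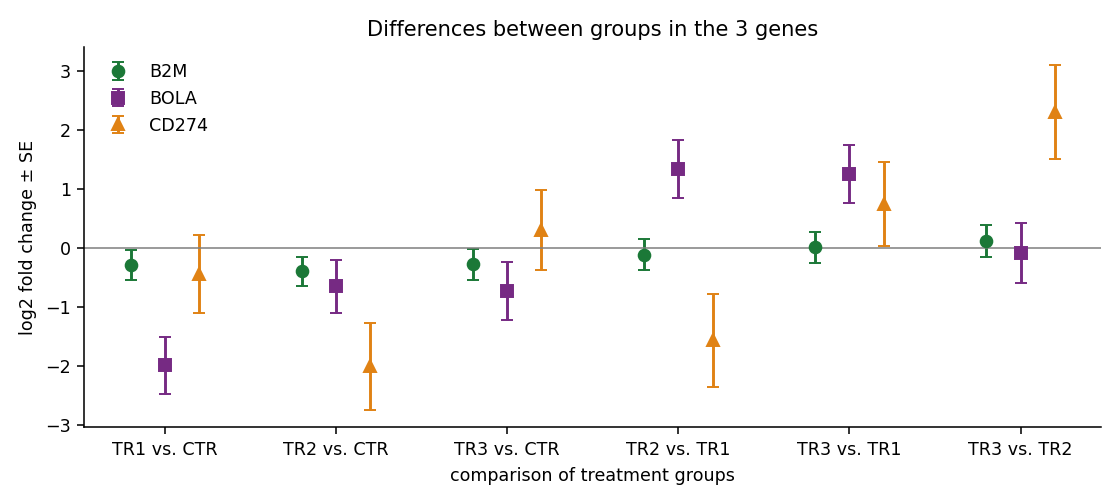
Log2 fold change (y axis) of each gene in the 6 comparisons between treatment groups (x axis), with bars of 1 standard error. BOLA was lowest in TR1 vs. CTR (-1.98), CD274 in TR2 vs. CTR (-2.00), and B2M stayed between -0.39 and 0.12.

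On a standardized scale, the difference between a group's mean variance-stabilized value and that of CTR was centred and scaled over all genes. This scale stands in for the study's own group comparison, whose exact form is not given in the sources used here. BOLA stood at -12.1, -3.23 and -4.23 for TR1, TR2 and TR3. B2M stood at -1.60, -2.16 and -1.77, and CD274 at -1.28, -2.56 and -0.32. At or below -1.5 on this scale were 5.23% of genes in TR1, 5.45% in TR2 and 5.07% in TR3. BOLA and B2M were past -1.5 in each comparison and CD274 in TR2, but the genes were picked for differences between these groups. Nothing is therefore read from the count. With log2 CPM in place of the variance-stabilized values, B2M was no longer past -1.5 in TR1 (-1.16) and TR3 (-1.20), and CD274 was past it in TR1 (-1.89).

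Class I genes resemble each other, and how well their reads could be told apart was not tested. BOLA is 1 of 4 class I heavy chain rows matched. The others are BOLA-NC1 (ENSBTAG00000019386), a class I gene of the non-classical kind, JSP.1 (ENSBTAG00000020116), and ENSBTAG00000007075, a row without a symbol in the study's tables, which list it under class I antigen presentation. Its identity as a heavy chain was not settled here, and it is counted in the sums and shares below. JSP.1 ranged from 5.25 to 171 CPM in CTR calves and from 16.4 to 159 CPM in TR1 calves, and TR2 and TR3 calves had 14.5 to 224 CPM and 10.9 to 172 CPM. Its log2 fold change was 0.12 (standard error 0.57) for TR1, 0.05 (standard error 0.54) for TR2 and 0.12 (standard error 0.60) for TR3, each within 1 standard error of 0. BOLA-NC1 had -0.42, -0.44 and -0.18 in the same order (standard errors 0.30, 0.28 and 0.30). ENSBTAG00000007075 had -0.84, -0.46 and 0.10 (each with a standard error of 0.47). Summed over the 4 rows, the median level was 209 CPM for CTR and 83.5 CPM for TR1, with 133 CPM for TR2 and 129 CPM for TR3.

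The make-up of the counts of these 4 rows varied widely between calves. Class I rows other than these 4 were not looked for. BOLA held from 6.27 to 92.8% of the 4 rows' counts, and its median share was 60.2% (CTR), 53.6% (TR1), 62.4% (TR2) and 48.5% (TR3). A share under 20% was seen in 4 TR1 calves and in 0 calves of CTR, TR2 and TR3. These were A2067 at 6.27% (exact 95% interval 4.98 to 7.77%), A2047 at 8.73% (7.73 to 9.80%), A2058 at 9.93% (8.24 to 11.8%) and A2092 at 17.3% (15.2 to 19.6%), where the intervals cover counting error only and not the assignment of reads to rows. In the same calves JSP.1 held 75.8, 79.2, 74.8 and 72.1% of the 4 rows' counts, whereas in the other TR1 calves it held 23.8 to 37.6%. The next highest JSP.1 shares were 67.8% in TR3 calf A2102 and 58.3% in TR2 calf A2099.

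Among these calves A2047, A2067 and A2058 had the highest B2M levels of TR1, at 136, 98.8 and 94.8 CPM. A2092, at 54.2 CPM, had the second lowest. CD274 had 9, 7, 1 and 11 counts in these 4 calves. Class I genes are highly polymorphic in cattle, and the reference holds 1 copy of each. How the calves' sires, which the labels do not name, their haplotypes and the assignment of reads bear on these shares was not tested.

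**Figure D3:**
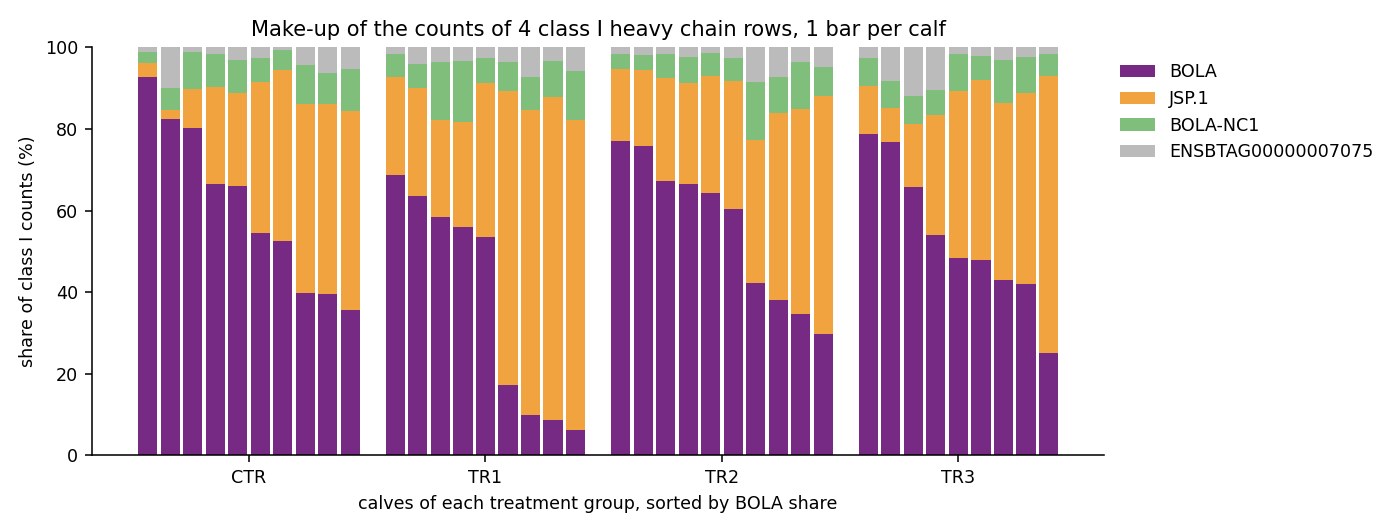
Share of the counts of 4 class I heavy chain rows (y axis, %) held by each row, with 1 bar per calf, grouped by treatment and sorted by the BOLA share (x axis). In TR1, 4 calves had 6.27 to 17.3% BOLA and 72.1 to 79.2% JSP.1, while no calf of another group had less than 25.1% BOLA.

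Sex and dam age were not used to pick the genes and were tested. Between 14 females and 24 males, B2M differed by 0.07 on the log2 scale (females minus males, 95% interval -0.31 to 0.45, edgeR adjusted p = 0.974). BOLA differed by -0.37 (-1.11 to 0.36, edgeR adjusted p = 0.918) and CD274 by -1.06 (-2.20 to 0.08, edgeR unadjusted p = 0.0654 and adjusted p = 0.779). With dam age as a factor the unadjusted p of CD274 was 0.0455. The interval of CD274 reaches from a level far below that of males to no difference. Median CD274 was 0.145 CPM in females and 0.170 CPM in males, with maxima of 1.19 and 1.67 CPM. Of all genes, 0.0309% passed (4 genes, each higher in females), and none of the members was among them.

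Per year of dam age, the log2 change was 0.01 (95% interval -0.14 to 0.16) for B2M, 0.00 (-0.32 to 0.32) for BOLA and 0.21 (-0.21 to 0.63) for CD274. The adjusted p values by edgeR were 0.995, 0.996 and 0.993, and 0% of genes passed, with 436 genes at an unadjusted p of 0.05 and 0 genes called by DESeq2.

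Between calves of the same group, the 3 genes varied together to unequal degrees. After the group means were removed from log2 CPM, B2M correlated with CD274 at r = 0.478 over 38 calves (permutation p = 0.00171, adjusted p = 0.00667; Spearman rho 0.471, permutation p = 0.00314) and kept r = 0.464 without the 2 calves farthest from the B2M median. B2M correlated with BOLA at r = 0.458 (permutation p = 0.00680, adjusted p = 0.0221; rho 0.411, permutation p = 0.0162), and at 0.311 without those calves. The call for B2M and BOLA was lost without CTR calf A2088 (r = 0.409, adjusted p = 0.0552) or TR2 calf A2023 (r = 0.369, adjusted p = 0.111). BOLA and CD274 had r = 0.296 (permutation p = 0.0879, adjusted p = 0.202; rho 0.297, permutation p = 0.0876), and 0.345 without the 2 farthest calves.

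The pairs with BOLA took a different form in TR1. B2M and BOLA had r = 0.716 (CTR), 0.907 (TR2) and 0.489 (TR3), but -0.520 in TR1. BOLA and CD274 had 0.775, 0.471 and 0.583 in CTR, TR2 and TR3, but -0.290 in TR1. Over the 29 calves outside TR1, r was 0.768 for B2M and BOLA and 0.595 for BOLA and CD274, given without a test because TR1 was left out after its values were seen. The difference between TR1 and the other groups was not tested. B2M and CD274 had positive r in each group (0.620, 0.188, 0.705 and 0.559 for CTR, TR1, TR2 and TR3). The CD274 values rest on logs of few counts. Some calves stood at the same end in all 3 genes: CTR calf A2034 had the highest BOLA and CD274 of its group and A2024 was highest of TR3 in each gene, while A2023 was lowest of TR2 in B2M and BOLA and had 0 CD274 counts.

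**Figure D4:**
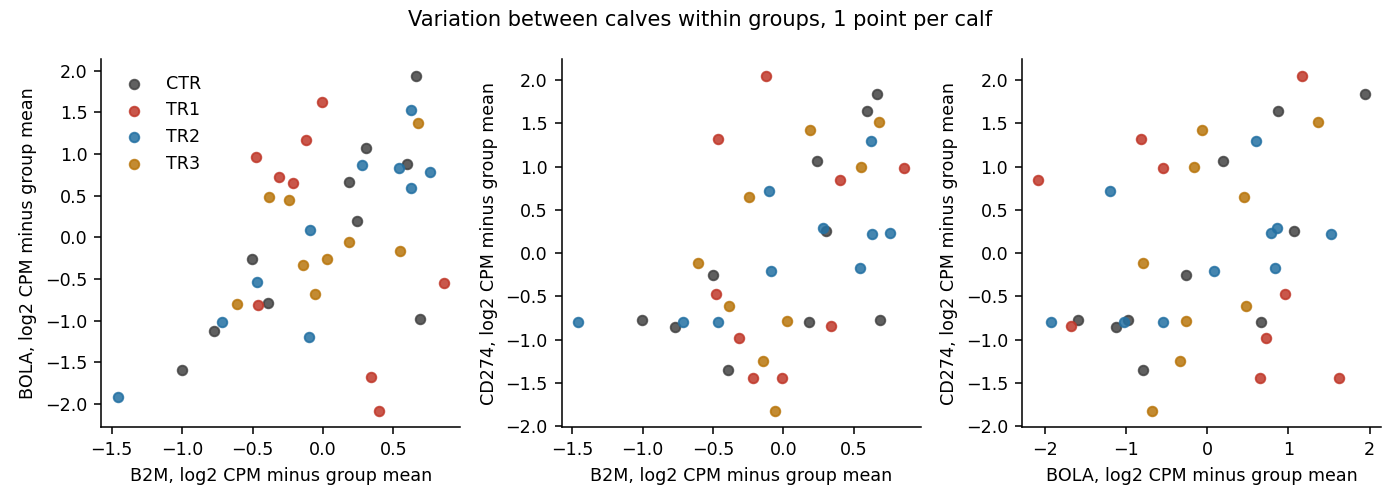
Log2 CPM minus the group mean of B2M against BOLA, B2M against CD274 and BOLA against CD274 (both axes in log2 units), with 1 point per calf coloured by group. Over 38 calves r was 0.458, 0.478 and 0.296, and the TR1 points of B2M against BOLA ran the opposite way from the rest (r = -0.520).

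The genes most like each member across calves, after group means were removed, were not the same for the 3 members. For B2M the highest correlation was 0.978 with ENSBTAG00000048782, a row without a symbol at 107 CPM on average, whose relation to B2M in the annotation was not analysed here. The 5 most similar genes with a symbol were CD74 (r = 0.857), the invariant chain of class II, CTSS (0.835), a protease that cleaves it, BOLA-DMB (0.827) and BOLA-DRA (0.823), both class II chains, and PSMB8 (0.808), an immunoproteasome subunit. Among the genes most like CD274 were IRF1 (0.837), a transcription factor of the interferon response, UBA7 (0.825), the activating enzyme for ISG15, TAP1 (0.824), a peptide transporter chain, and PARP14 (0.805), an interferon-induced ADP-ribosyltransferase. BOLA had no gene with r over 0.7, and its 5 highest among genes with a symbol were SDR42E1 (0.631), RBM43 (0.591), PRSS2 (0.576), MTMR4 (0.546) and H1-12 (0.542). Correlations over 0.7 numbered 31 genes for B2M, 42 for CD274 and 0 for BOLA, of 12963 each, and these values are descriptions without a test. BOLA also had r = -0.17 with JSP.1 and 0.26 with BOLA-NC1, where B2M had 0.36 and 0.58.

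Lists of genes were set beside the members as means of log2 CPM, with the members left out, and 39 relations were adjusted together. Their symbols came from genes the study had called on these calves, so they are not independent of the group differences. The permutation p is set against no correlation, and not against other genes called on the same calves. Whether the members followed these lists more closely than other called genes was not tested. The interferon gamma list shares PSME2, TAP1, PSMB8 and PSMB9 with the peptide supply list and a further gene with the class II list. Relations with these lists are therefore not independent of each other. B2M followed 7 genes of class I peptide supply and assembly (r = 0.800), 12 interferon gamma response genes (0.711), 16 type I interferon genes (0.750) and 8 class II genes (0.838), each at a permutation p of 1e-05, the smallest possible, and an adjusted p of 5.57e-05. CD274 followed the same lists at r = 0.786, 0.860, 0.724 and 0.722, with adjusted permutation p values of 5.57e-05 or, for type I interferon, 9.75e-05. Spearman's rho lay between 0.708 and 0.824 in these 8 relations, with permutation p values of 1e-05, and r without the 2 farthest calves between 0.709 and 0.839.

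BOLA passed only with class II genes (r = 0.513, permutation p = 0.00105, adjusted p = 0.00455; rho 0.471, permutation p = 0.00383; 0.536 without the 2 farthest calves). With peptide supply it had r = 0.364 (permutation p = 0.0348, adjusted p = 0.0904), with interferon gamma genes 0.354 (permutation p = 0.0384, adjusted p = 0.0936) and with type I interferon genes 0.286 (permutation p = 0.103, adjusted p = 0.224). In TR1 alone these 4 correlations were negative, from -0.516 to -0.463, while in CTR they were 0.712 to 0.886. Without TR1, left out after these values were seen, r was 0.677, 0.650 and 0.621 for peptide supply, interferon gamma and type I interferon, given without a test. With the other 3 heavy chain rows r was 0.529 for B2M (permutation p = 0.00258, adjusted p = 0.00915), 0.341 for CD274 (permutation p = 0.0310, adjusted p = 0.0865; by rank, rho 0.452 and adjusted p = 0.0225) and 0.004 for BOLA (permutation p = 0.984, adjusted p = 0.993).

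**Figure D5:**
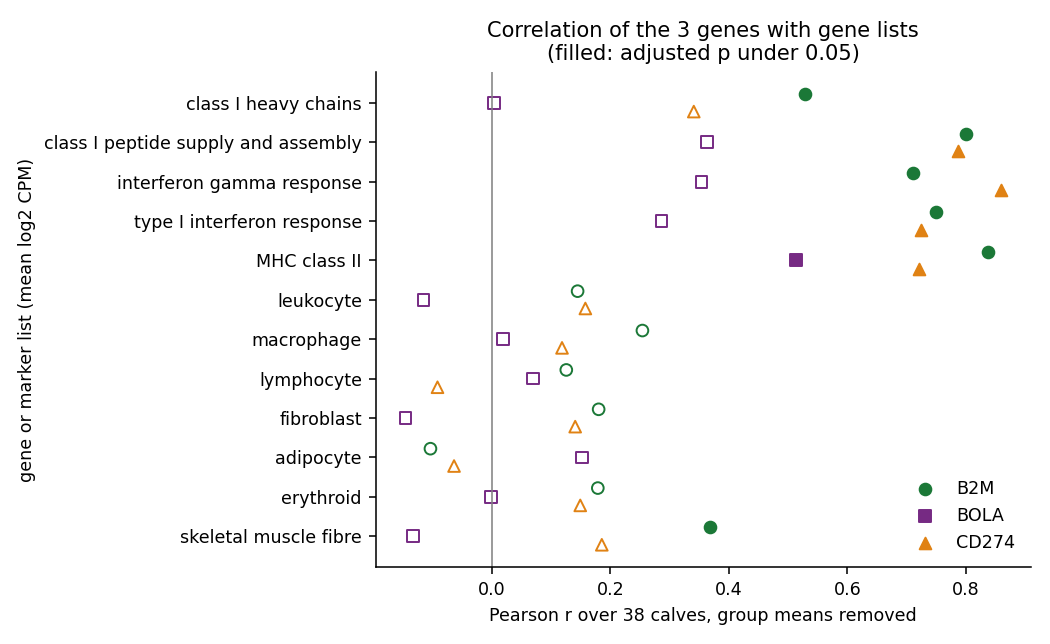
Pearson r over 38 calves after removal of group means (x axis) between each member and the mean log2 CPM of 12 lists (y axis), where filled symbols had an adjusted p under 0.05. B2M and CD274 had r of 0.711 to 0.860 with the peptide supply, interferon and class II lists, and BOLA passed with class II genes (0.513).

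Markers of other cell types were given the same test. Against leukocyte, macrophage, lymphocyte, fibroblast, adipocyte and erythroid lists, |r| over all 38 calves stayed at or under 0.254. No adjusted permutation p passed for any member, the smallest being 0.336 for B2M and macrophage markers. In single groups r reached further and changed sign, also outside TR1, which was not tested. For CTR, TR1, TR2 and TR3, BOLA had -0.662, 0.309, 0.396 and -0.849 with lymphocyte markers. B2M had 0.033, 0.687, 0.446 and -0.525 with macrophage markers. Only 3 of 7 leukocyte and 2 of 8 lymphocyte markers were matched, so these lists are thin. PTPRC, the common leukocyte antigen, had 1.19 CPM on average and LCP1, an actin-bundling protein of leukocytes, 2.64 CPM. Lymphocyte markers, CD8A and CD79B, summed to 0 in at least 1 TR2 calf, and by median to 2.03, 0.917, 1.04 and 2.02 CPM for CTR, TR1, TR2 and TR3. The 6 matched of 10 macrophage markers, led by MRC1 at 26.2 CPM and C1QC at 2.07 CPM, summed to 4.03 to 83.2 CPM, with group medians between 22.9 CPM (TR1) and 32.0 CPM (CTR). Fibroblast markers, led by COL3A1 and COL1A2, summed to 223 to 1217 CPM, adipocyte markers, led by PLIN1 and FABP4, to 1.77 to 42.5 CPM, and erythroid markers, led by the haemoglobin genes HBB and HBA, to 6.17 to 455 CPM. S100A9 of neutrophils had 0.0788 to 6.32 CPM and VWF of endothelium 23.3 to 69.5 CPM. B2M had r = 0.369 with muscle fibre markers, led by ACTA1 and MYH1 (permutation p = 0.0121, adjusted p = 0.0362; rho 0.366, permutation p = 0.0273, adjusted p = 0.0761). That call was lost with library size in place of TMM (r = 0.208) and when any of 11 calves was left out. The part of cell composition in the members' levels was otherwise not tested.

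Between groups, the genes that work with the members are given by counts, since the study chose them on these calves. The genes of a list come from the same calves, so a count of signs is not a count of independent results. None of these genes passed an adjusted p of 0.05 in edgeR's test of any comparison with CTR. All 7 genes of peptide supply and assembly had negative log2 fold changes in each comparison, by median -0.25 (TR1), -0.60 (TR2) and -0.14 (TR3), where the median of all tested genes was 0.00, 0.01 and -0.01. The transporter chains TAP1 and TAP2 had -1.03 (standard error 0.42) and -0.60 (standard error 0.22) in TR2 vs. CTR. The immunoproteasome subunits PSMB8 and PSMB9 had -0.58 (standard error 0.32) and -1.11 (standard error 0.37), the proteasome activator PSME2 -0.32 (standard error 0.20), and ERAP2, which trims peptides, -0.99 (standard error 0.30). CALR, a chaperone of class I loading, was nearest to 0 at -0.14 (standard error 0.18). In each of TR1, TR2 and TR3 the B2M value of -0.29, -0.39 and -0.27 was thus within the spread of these genes, from -0.46 to -0.15 in TR1, from -1.11 to -0.14 in TR2 and, in TR3, close to the lowest of them, which was PSMB9 at -0.28.

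Of 12 interferon gamma response genes, 12 were negative for TR1, 12 for TR2 and 9 for TR3, with medians of -0.29, -1.02 and -0.20. PSME2, TAP1, PSMB8 and PSMB9 are counted in this list too, and a further gene of it is also in the class II list. Of 16 type I interferon response genes, 5 were negative for TR1, 16 for TR2 and 13 for TR3, with medians of 0.16, -0.80 and -0.25. IFI35 and MX1, the most abundant of them, had -0.30 (standard error 0.19) and -0.74 (standard error 0.32) in TR2 vs. CTR. Class II genes were negative for 8 of 8 in each comparison, with medians of -0.47, -0.91 and -0.18, and the most abundant, CD74 and BOLA-DRA, had -0.65 (standard error 0.35) and -0.95 (standard error 0.42) in TR2 vs. CTR. By their medians these 4 lists were lowest in TR2. Markers of other cell types also differed between groups, and none passed an adjusted p of 0.05. The 3 leukocyte markers were negative in each comparison, with medians of -0.56 (TR1), -0.41 (TR2) and -0.26 (TR3), as were the 3 erythroid markers, with -0.80, -0.95 and -0.59. Of 5 fibroblast markers, 5 were negative in TR2 (median -0.57), 2 in TR1 and 3 in TR3. Of 6 macrophage markers, 5, 5 and 4 were negative, with medians of -0.22, -0.21 and -0.23, and of 2 lymphocyte markers, 2, 2 and 1 (-0.67, -0.56 and -0.00). Adipocyte markers had medians of 0.86, -0.70 and -0.77, and muscle fibre markers of -0.20, -0.04 and 0.01. The part of these markers in the members' and lists' values was not tested.

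Of the other PD-1 pathway genes only CD86, a costimulatory ligand on antigen-presenting cells, was matched. Its medians were 1.49 CPM (CTR), 1.15 CPM (TR1), 0.918 CPM (TR2) and 0.866 CPM (TR3). The log2 fold changes vs. CTR were -0.32, -0.61 and -0.27 (standard errors 0.39, 0.38 and 0.42). PDCD1, which encodes PD-1 itself, was not analysed here.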

How the data were processed

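Poly-A-enriched, strand-specific libraries were prepared from Longissimus dorsi muscle of 38 newborn calves. Reads were trimmed by the authors and aligned to ARS-UCD1.2 with STAR 2.7.3a, whose gene counting mode gave the deposited raw counts for 27607 Ensembl genes, and the strand column that was kept is not given in the sources used here. How the gene counting handled reads that match several similar class I genes was not analysed here, and BOLA counts depend on it.

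From the counts, filterByExpr (sex and treatment group) kept 12964 genes, TMM factors were computed and edgeR 4.0.16 was fitted with glmQLFit on all 38 calves, with dam age (linear), offspring sex and treatment group. P values of the quasi-likelihood F-test were adjusted by Benjamini-Hochberg over all genes tested and called at 0.05. The standard error was taken as the absolute log2 fold change over the square root of the F statistic, and 95% intervals use 32 residual degrees of freedom. Standardized differences came from DESeq2 1.42.0 variance-stabilized values. Correlations used log2 CPM (prior count 2) centred on group means, with 100000 two-sided permutations of calves within groups, or 10000 where a calf was left out.

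The members, gene lists and tests were chosen with earlier results of these data known. Named genes were the members, the matched class I heavy chain, peptide supply and PD-1 genes, the 2 most abundant genes of each other list, and the 5 genes with a symbol most like each member. Some genes that this rule takes are not reported here. Symbols came from the study's supplementary tables, which name 2894 gene IDs, and other list genes were not analysed here. Neutrophil and endothelium lists had 1 matched gene each and were left out of the correlations. Alternatives were DESeq2, library size, no filter, a robust fit, other covariates, fits restricted to a pair of groups, and leaving out single calves. The fits were tested on simulated data. R 4.3.3 and Python 3.11.15 were used.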

Additional observations from a re-analysis of the deposited data

Results flagged for a closer look

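Within each group of 9 or 10 calves, the highest or lowest calf was compared with its nearest neighbour for the 3 members and the other class I heavy chain rows. By chance about 1 in 20 such groups would have a calf that stands apart if levels were normally distributed. Here 7 of 24 did, each at the highest end. CPM levels were skewed upwards and the rows share calves, so that nothing is read from this count. BOLA was far above the rest in CTR calf A2034, at 394 CPM where the next calf had 215 CPM, and in TR3 calf A2024, at 184 CPM where the next had 99.4 CPM. Without both calves BOLA in TR1 vs. CTR was -1.57 on the log2 scale. JSP.1 was far above the rest in TR1 calf A2047 at 159 CPM, in TR2 calf A2099 at 224 CPM and in TR3 calf A2102 at 172 CPM. TR2 calf A2099 also stood apart in BOLA-NC1, at 26.5 CPM, and in ENSBTAG00000007075, at 18.9 CPM. No calf stood apart by this criterion in B2M or CD274.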

How the results depend on the processing

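No paired analysis was possible because the groups held different calves and the labels name no pairs or blocks. The study reports that cows were assigned within a block design and bred to a single sire or, failing that, to several bulls. The labels give neither block nor sire, so neither was in the model. Of the differences between treatment groups, each log2 fold change under another tool, scaling, filter, robust fit or covariates moved by less than the spread between calves. That spread was a pooled SD within groups of 0.571 (B2M), 1.09 (BOLA) and 1.10 (CD274) log2 units, a wide limit for a group difference. Within it, CD274 in TR3 vs. CTR changed sign (-0.22 with dam age as a factor and -0.086 without covariates). With only the 2 groups compared, CD274 did not pass the filter in TR2 vs. CTR, TR2 vs. TR1 or TR3 vs. TR2 and has no value there. Genes called numbered 1 in TR2 vs. CTR and 7 by sex with DESeq2, 2 in TR3 vs. CTR, 11 by sex and 3 by dam age without the filter, and 1 by dam age without sex. With 1 calf left out, 0 to 1 genes were called in TR1 and TR2 vs. CTR and by dam age, and 4 to 8 by sex (7 without TR1 calf A2067 and 8 without TR2 calf A2099).

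BOLA per year of dam age was -0.0087 with library size and -0.047 without sex, and -0.058 to 0.098 with 1 calf left out. B2M was -0.029 to 0.057 per year, and -0.082 to 0.13 by sex. With log2 CPM the standardized difference was -1.16 for B2M and -1.89 for CD274 in TR1 and -1.20 for B2M in TR3.

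With library size, BOLA and peptide supply passed (r = 0.409), and with a prior count of 0.5, CD274 and heavy chains (0.385). Without TR1, left out after its values were seen and so given without a test, r was 0.595 for BOLA and CD274, 0.457 for B2M and heavy chains, 0.677, 0.650 and 0.621 for BOLA with peptide supply, interferon gamma and type I interferon, -0.0011 for BOLA and 0.020 for CD274 with lymphocyte, and 0.157 for BOLA with muscle fibre markers. BOLA and heavy chains had -0.0042 on residuals. Without centring, BOLA had 0.043 with leukocyte, -0.0040 with adipocyte, 0.019 with erythroid and 0.040 with muscle fibre markers, and CD274 had 0.108 with lymphocyte and 0.0079 with adipocyte markers. With 1 calf left out, r was 0.369 to 0.540 for B2M and BOLA, 0.308 to 0.394 for CD274 and heavy chains, and, for BOLA, -0.082 to 0.067 with heavy chains, 0.293 to 0.423 with peptide supply and 0.257 to 0.416 with interferon gamma. CD274 and heavy chains passed without CTR calf A2034, BOLA and peptide supply without TR1 calf A2029, A2052 or A2067, and BOLA and interferon gamma without A2029 or A2067. For marker lists it was -0.119 to 0.280 for B2M with lymphocyte, -0.206 to 0.037 for B2M with adipocyte, -0.058 to 0.138 for BOLA with macrophage, -0.097 to 0.150 for BOLA with lymphocyte, -0.070 to 0.061 for BOLA with erythroid and -0.120 to 0.083 for CD274 with adipocyte markers. The cause of these changes was not tested. CD274 has 0 to 25 counts per calf, which limits every value given for it.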
